A study of Mus musculus with 21 samples.

Results

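Cd7, Cdh1 and Cd163l1 are 3 genes for surface proteins of lymphoid progenitors (LPs), and they are described here out of 55421 genes measured. They were chosen by symbol as surface genes that were much lower in the libraries labelled sgZbtb1 than in those labelled sgControl. The values of that comparison are therefore given as a description with no test. The tests of the members compared groups that the choice did not use, although their estimate of the spread came from all 15 libraries. The cells were a mouse Ebf1-deficient LP line of the C57BL6/J strain, grown on OP9 stroma with SCF, IL-7 and Flt3L and without Notch stimulation, which keeps its capacity for the T lineage. All groups carried Cas9-GFP and a retroviral sgRNA with an hNGFR marker, and double positive cells were sorted 5 days after the sgRNA was introduced. The 5 groups differed in the target of the sgRNA, with a pool of 2 vectors per gene against Lmo2, Zbtb1, Cbfa2t2 or Cbfa2t3, or a control sgRNA against luciferase, and each group had 3 libraries of QuantSeq 3′ mRNA sequencing. Peaks came from chromatin immunoprecipitation (ChIP-seq) of Zbtb1 and of Cbfa2t3 in LPs without sgRNA, with 2 replicates per factor and 1 list of reproducible peaks each. The sorted pools can hold cells with unedited alleles.

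Cd7 encodes a small glycoprotein of the immunoglobulin superfamily that appears early on lymphoid progenitors and stays on T and NK cells, and its known ligands are the secreted and transmembrane proteins of the Sectm1 family. Cdh1 encodes E-cadherin, best known as the calcium-dependent adhesion molecule of epithelia, which binds itself on a neighbouring cell, is tied to the cytoskeleton by catenins, and is also recognised by the integrin Itgae/Itgb7 and by the receptor Klrg1 on lymphocytes. Cd163l1, also called Scart1, encodes a membrane protein with scavenger receptor cysteine-rich (SRCR) domains that in mice is known from gamma-delta T cells.

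The libraries held 1705416 to 2095447 reads, and levels are given in TPM as deposited, which here is each gene's share of a library scaled to the same total (CPM), without division by gene length. The smallest amount taken as measurable was 3 reads, worth 1.43 to 1.76 TPM. No targeted gene had less mRNA in all of its own libraries than in sgControl. Zbtb1 mRNA was at 94.4 to 113 TPM in the libraries labelled sgZbtb1 and at 55.7 to 66.6 TPM in sgControl, and Cbfa2t3 mRNA was at 340.5 to 364 TPM in the libraries labelled sgCbfa2t3 and at 172 to 210 TPM in sgControl. Cbfa2t2 mRNA was at 16.4 to 25.5 TPM in the libraries labelled sgCbfa2t2 and at 11.03 to 12.3 TPM in sgControl (limma adjusted p = 0.412), and Lmo2 mRNA at 8.48 to 24.4 TPM in the libraries labelled sgLmo2 overlapped sgControl (15.8 to 23.2 TPM). Reads near the 3′ end do not measure whether the coding sequence was disrupted, and protein was not analysed here. All directions below are drawn from these labels.

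Cd7 (ENSMUSG00000025163) was at 9.87, 34.7 and 15.8 TPM in sgControl, and the libraries labelled sgLmo2 held 13.6, 33.7 and 13.7 TPM. It was at 5.85, 18.1 and 15.5 TPM in those labelled sgCbfa2t2, at 3.75, 6.28 and 2.22 TPM in those labelled sgCbfa2t3, and at 1.12, 0.956 and 4.91 TPM in those labelled sgZbtb1. The library numbered 2 was the highest of its group everywhere but in sgZbtb1, and the ranges of sgZbtb1 and sgCbfa2t3 overlapped each other but lay below all libraries of sgControl and sgLmo2. The means were 20.1 ± 13.0 TPM in sgControl, 20.3 ± 11.6 in sgLmo2, 13.1 ± 6.46 in sgCbfa2t2, 4.08 ± 2.05 in sgCbfa2t3 and 2.33 ± 2.24 TPM in sgZbtb1 (SD, n = 3 each). In sgZbtb1 the value was thus 11.6% of the sgControl mean. The levels in sgZbtb1 rested on few reads. Replicates 1 and 2 held 2 Cd7 reads each, below the 3 reads taken as measurable, and replicate 3 held 10. The 3 libraries labelled sgZbtb1 held 14 Cd7 reads together and the 3 sgControl libraries 104. The ratio after scaling to library size was 11.7%, with an exact 95% interval of 6.20% to 20.6% that covers counting error only.

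Cdh1 (ENSMUSG00000000303) was even within sgControl, sgLmo2 and sgZbtb1 and more spread within sgCbfa2t2 and sgCbfa2t3. It was at 38.9, 38.8 and 36.9 TPM in sgControl, at 44.1, 37.2 and 39.4 TPM in sgLmo2, and at 6.15, 6.69 and 5.40 TPM in sgZbtb1. All libraries labelled sgZbtb1 lay below those of every other group, the nearest being replicate 2 of sgCbfa2t3 at 7.42 TPM. The other libraries labelled sgCbfa2t3 held 13.9 and 18.3 TPM, and those labelled sgCbfa2t2 26.6, 19.1 and 37.7 TPM. The group means were 38.2 ± 1.1 TPM in sgControl, 40.2 ± 3.54 in sgLmo2, 27.8 ± 9.35 in sgCbfa2t2, 13.2 ± 5.47 in sgCbfa2t3 and 6.08 ± 0.648 TPM in sgZbtb1 (SD, n = 3 each). The sgZbtb1 mean was 15.9% of the sgControl mean, from 36 reads against 197, with an exact 95% counting interval of the ratio of 10.8% to 22.8%.

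Cd163l1 (ENSMUSG00000025461) was closest to disappearing. Its values were 23.2, 13.9 and 19.9 TPM in sgControl, 22.6, 20.5 and 22.5 TPM in sgLmo2, and 2.23, 0 and 0.491 TPM in sgZbtb1. In reads the last group held 4, 0 and 1, so that only replicate 1 was above the 3 reads taken as measurable, and the 0 in replicate 2 allows a level of up to 1.43 TPM. The libraries labelled sgCbfa2t2 were at 10.1, 3.34 and 9.18 TPM and those labelled sgCbfa2t3 at 11.8, 4.00 and 3.32 TPM. These ranges overlapped each other, and both lay between the ranges of sgControl and sgZbtb1 without touching either. The means were 19.0 ± 4.74 TPM in sgControl, 21.9 ± 1.16 in sgLmo2, 7.54 ± 3.67 in sgCbfa2t2, 6.37 ± 4.71 in sgCbfa2t3 and 0.908 ± 1.17 TPM in sgZbtb1 (SD, n = 3 each). The ratio of sgZbtb1 to sgControl, scaled to library size, was 4.44%, with an exact 95% counting interval of 1.41% to 10.7%.

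**Figure D1:**
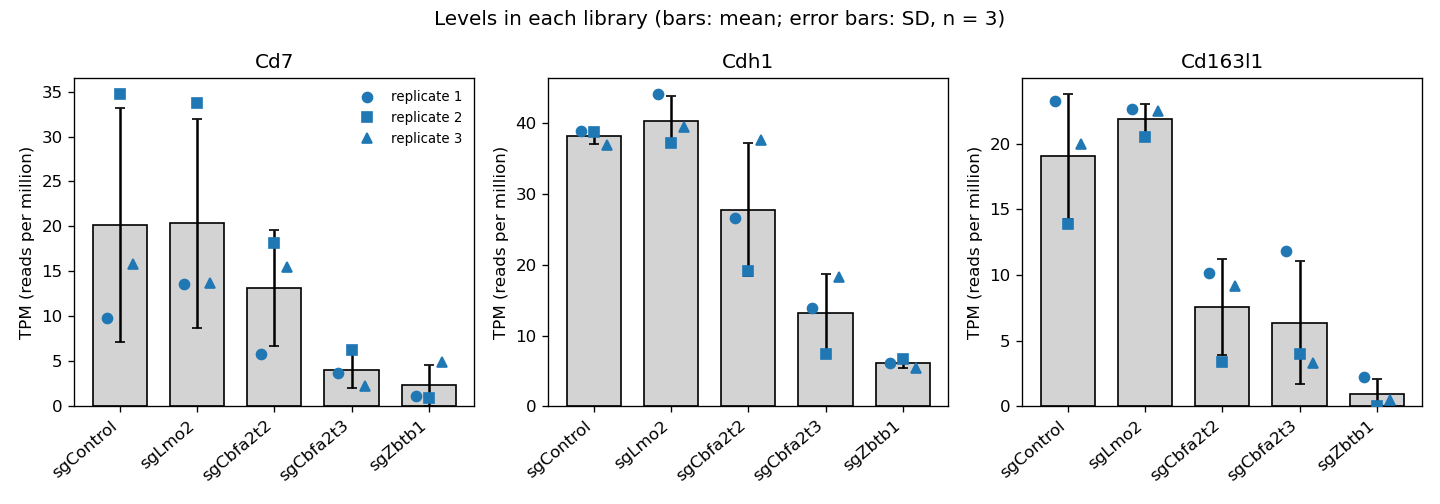
Level of Cd7, Cdh1 and Cd163l1 in TPM (linear axes from 0) in each of the 15 libraries, as points by replicate number, with the mean (bar) and SD (n = 3) of each group. Cdh1 in the libraries labelled sgZbtb1 sits between 5.40 and 6.69 TPM against 36.9 to 38.9 TPM in sgControl, and Cd7 spreads from 9.87 to 34.7 TPM within sgControl.

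In all 3 genes the order of the means was sgLmo2, sgControl, sgCbfa2t2, sgCbfa2t3 and sgZbtb1, from high to low. The steps were not equally clear. The ranges of sgLmo2 and sgControl overlapped for each gene, as the sgLmo2 means were 101% (Cd7), 105% (Cdh1) and 115% (Cd163l1) of sgControl. The step from sgControl to sgCbfa2t2 exceeded the spread of the libraries for Cd163l1 only, which stood at 39.7% of sgControl in sgCbfa2t2 against 65.3% for Cd7 and 72.7% for Cdh1, whose ranges overlapped. The step from sgCbfa2t2 to sgCbfa2t3 separated the ranges of Cdh1 but not of Cd7 or Cd163l1, and the last step to sgZbtb1 separated those of Cdh1 and Cd163l1 but not of Cd7. How many of all genes in the fit separate at these steps was not counted. In sgCbfa2t3 the means were 20.3% of sgControl for Cd7, 34.6% for Cdh1 and 33.5% for Cd163l1. In bulk libraries of this kind fewer cells with the transcript and less transcript per cell cannot be told apart.

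On the log2(TPM + 1) scale of the fit, which understates the change of low genes, the differences from sgControl were -2.69 for Cd7 (standard error 0.45), -2.47 for Cdh1 (0.28) and -3.54 for Cd163l1 (0.44) in sgZbtb1. The values depend on the constant added before the logarithm, most of all for Cd163l1. With 0.1 in place of 1 they were -3.25 for Cd7, -2.64 for Cdh1 and -5.18 for Cd163l1. In sgCbfa2t3 the differences were -1.96, -1.54 and -1.59 in the same order of genes, in sgCbfa2t2 -0.53, -0.50 and -1.31, and in sgLmo2 0.06, 0.07 and 0.22, with the same standard errors. These comparisons share their sgControl libraries with the one that chose the genes and carry no test. Of all 11554 genes in the fit 2.94% were called lower in sgZbtb1 at an adjusted p under 0.05, and since the members were chosen as genes much lower there, nothing is read from this share for them.

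The libraries labelled sgLmo2, sgCbfa2t2 and sgCbfa2t3 were not used in the choice and allow tests of a difference between Cbfa2t3, Cbfa2t2 and Lmo2 as targets. The spread in these tests was estimated over all 15 libraries, those used in the choice included. All 3 genes were lower in sgCbfa2t3 than in sgLmo2, where 0.519% of all genes in the fit were called lower. The log2 difference was -1.61 for Cdh1 (standard error 0.28, limma adjusted p = 0.000193), -2.02 for Cd7 (standard error 0.45, limma adjusted p = 0.00804) and -1.81 for Cd163l1 (standard error 0.44, limma adjusted p = 0.0237). For each gene all 3 libraries labelled sgCbfa2t3 lay below all 3 labelled sgLmo2, and an exact two-sided permutation test gave p = 0.1, the smallest possible with 3 libraries against 3. The share of all genes in the fit that separate in this way was not counted, so nothing is read from the separation. These p-values are two-sided, and the adjustment covers all genes in the fit.

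The Cdh1 call held in 14 of 14 alternatives, with adjusted p between 4.32e-05 and 0.0141. The Cd7 call held in 10 of 14, and it was lost without replicate 2 of sgLmo2 (limma adjusted p = 0.203), the highest Cd7 library of that group, and without replicate 3 of sgCbfa2t3 (limma adjusted p = 0.0882), the lowest of its group, as well as with DESeq2 (adjusted p = 0.1215) and with all genes above 0 in the fit (limma adjusted p = 0.201), with adjusted p from 0.00176 to 0.203 over all alternatives. The Cd163l1 call held in 7 of 14, with adjusted p from 0.00419 to 0.238. It was lost without replicate 1, 2 or 3 of sgLmo2 (limma adjusted p = 0.081, 0.0977 and 0.105) and without replicate 2 or 3 of sgCbfa2t3 (0.154 and 0.178), so that only the omission of replicate 1 of sgCbfa2t3 kept it among single libraries. It was also lost with 0.1 added in place of 1 (limma adjusted p = 0.215) and with all genes above 0 in the fit (limma adjusted p = 0.238).

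Between sgCbfa2t2 and sgLmo2 none of the 3 genes passed, where 0.147% of all genes were called lower. The largest of these differences was that of Cd163l1, -1.53 with a 95% interval of -2.42 to -0.65 (limma adjusted p = 0.208), and its ranges in the 2 groups did not overlap. The differences of Cd7 (-0.59, interval -1.50 to 0.31, limma adjusted p = 0.855) and Cdh1 (-0.57, interval -1.13 to 0.00, limma adjusted p = 0.703) came with overlapping ranges. Between sgCbfa2t3 and sgCbfa2t2, where 0.0433% of all genes were called lower, the differences were -1.43 for Cd7 (interval -2.33 to -0.52, limma adjusted p = 0.475), -1.05 for Cdh1 (interval -1.61 to -0.48, limma adjusted p = 0.275) and -0.28 for Cd163l1 (interval -1.16 to 0.61, limma adjusted p = 0.967). Intervals are not adjusted for the number of genes, and those that miss the threshold do not show that the groups were alike. No member changed its call in these 2 comparisons under any alternative, and the sign of the Cd163l1 difference between sgCbfa2t3 and sgCbfa2t2 depended on replicate 3 of sgCbfa2t3, without which it was 0.02.

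**Figure D2:**
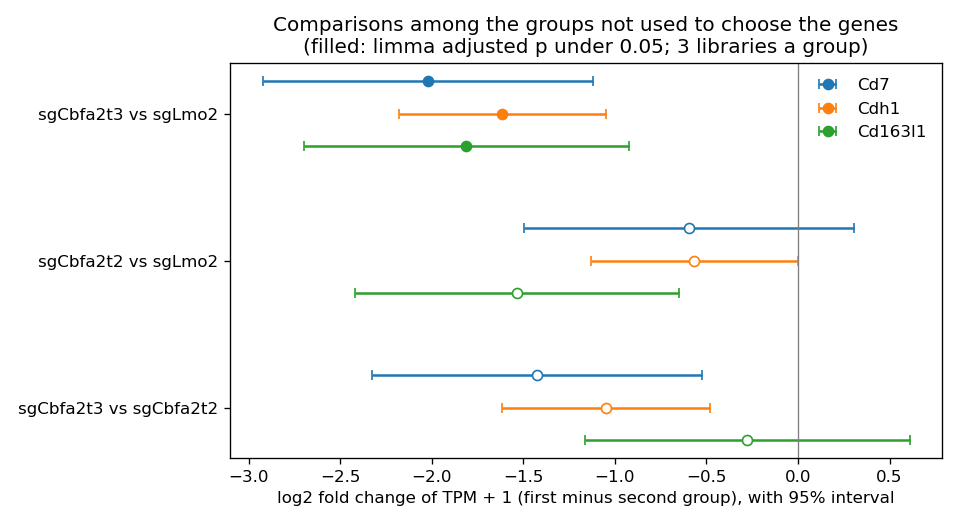
Log2 fold change of TPM + 1 with its 95% interval for Cd7, Cdh1 and Cd163l1 in the 3 comparisons among sgLmo2, sgCbfa2t2 and sgCbfa2t3 (3 libraries each), with filled points for a limma adjusted p under 0.05. The filled points are the 3 of sgCbfa2t3 against sgLmo2, at -2.02, -1.61 and -1.81, and the other 6 are open.

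Across the 15 libraries the levels of the members followed each other, with Pearson's r of log2(TPM + 1) of 0.88 for Cdh1 and Cd163l1, 0.77 for Cd7 and Cdh1, and 0.69 for Cd7 and Cd163l1. After removal of the group means r was 0.27, -0.41 and -0.32. The first set of values thus came largely from differences between groups, which the choice of the genes favours, and libraries of a group did not have Cd7 and the other genes high together. Among 8156 genes with a mean above 10 TPM, those most like Cd163l1 were the copine gene Cpne2 (r = 0.94), the T cell receptor delta constant gene Trdc (0.91), the transcription factor gene Sox6 (0.91), the T lineage transcription factor gene Bcl11b (0.90) and the protein disulfide isomerase gene Pdia5 (0.90). Cdh1 was most like Lztfl1 (r = 0.92), Cpne2 (0.92), the lymphoid surface gene Ly6d (0.92), the imprinted long noncoding RNA H19 (0.92) and the nuclear envelope gene Syne1 (0.91). Cd7 was most like the small nucleolar RNA Snord13 (r = 0.90), Tex2 (0.90), the actin-binding gelsolin gene Gsn (0.88), H19 (0.88) and the adaptor gene Tyrobp (0.88). After removal of the group means r was 0.30 to 0.60 for the genes named with Cd163l1 and 0.45 to 0.71 for those named with Cd7. For Cdh1 it was 0.82 with Syne1, 0.36 with Lztfl1, 0.12 with Cpne2, 0.09 with H19 and -0.29 with Ly6d. H19 and Cpne2 stood in 2 of these lists each. All these genes had their lowest group mean in sgZbtb1, with 8.17 TPM against 56.0 in sgControl for H19 and 6.91 against 38.2 TPM for Cpne2, and the likeness is over libraries that share the same 5 groups.

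The genes lie on 3 chromosomes of mm10. Cd7 spans 2672 bp on the minus strand at chr11:121036747-121039418, inside the antisense gene Gm11775, which had 0 reads in all libraries. Cdh1 spans 66896 bp on the plus strand at chr8:106603351-106670246, and Cd163l1 spans 12879 bp on the plus strand at chr7:140218267-140231145. Of 18 protein-coding genes in the fit within 200 kb, 2 passed the test against sgControl in any group (5.17% of all protein-coding genes in the fit did).

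The first was 5830411N06Rik, also known as Scart2, another SRCR gene, which starts 16.1 kb downstream of Cd163l1 on the same strand. It was at 222, 109 and 158 TPM in sgControl, 135, 51.2 and 55.5 TPM in sgZbtb1, and 79.9, 58.2 and 75.3 TPM in sgCbfa2t3. The libraries labelled sgCbfa2t3 lay below all of sgControl, and replicate 1 of sgZbtb1 lay within the sgControl range. Its log2 difference was -1.10 in sgZbtb1 (standard error 0.19, limma adjusted p = 7.02e-05) and -1.14 in sgCbfa2t3 (standard error 0.19, limma adjusted p = 0.000175), so that it fell by about as much in both, while the difference between them was not tested. The gene passed in neither group with DESeq2, nor in sgCbfa2t3 with all genes above 0 in the fit. In sgLmo2 it was at 323, 221 and 277 TPM and in sgCbfa2t2 at 140.5, 87.3 and 94.7 TPM, and neither difference from sgControl passed (limma adjusted p = 0.161 and 0.29). The transcripts of Cd163l1 and 5830411N06Rik share no exact stretch longer than 23 bases, which is shorter than the 75 base reads.

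The second was Slc16a3, which encodes a lactate transporter and lies 75.9 kb from Cd7. Its mean was 61.4 TPM in sgControl and 32.1 TPM in sgZbtb1, a log2 difference of -0.94 (standard error 0.23, limma adjusted p = 0.00683), and it did not pass in the other 3 groups. Csnk1d, the kinase gene 45.4 kb from Cd7, had means of 140 (sgControl) and 130 TPM (sgZbtb1). None of the 3 neighbours of Cdh1 passed. Tango6, whose start lies 12.8 kb beyond the end of Cdh1, had means of 7.95 TPM in sgControl and 12.2 TPM in sgZbtb1.

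The peak lists differed around the members. Of 6077 Cbfa2t3 peaks 3 had a member as the nearest gene, 2 of them at Cd7 and 1 at Cd163l1, while none of the 5898 Zbtb1 peaks did. For comparison, 20.5% of the genes in the fit had at least 1 Cbfa2t3 peak assigned to them and 26.8% at least 1 Zbtb1 peak. Cdh1 had no peak assigned to it in either list, but a Cbfa2t3 peak lay inside it and was assigned to the neighbouring Tango6. The 4 Cbfa2t3 sites are printed as the 200 bases around the peak centre, read from the plus strand of GRCm38 (mm10), because they are the places where the binding data touch these genes. None overlaps an annotated exon. They lie 4.2 kb upstream of the Cd163l1 start (chr7:140213984-140214183), 0.4 kb downstream of the Cd7 start in intron 1 (chr11:121038949-121039148), 19.7 kb downstream of that start and beyond the end of Cd7 (chr11:121019583-121019782), and 39.9 kb downstream of the Cdh1 start in intron 2 (chr8:106643200-106643399). Capitals mark matches on either strand to the Runx core TGTGGT, the E-boxes CAGCTG and CACCTG, the GATA core AGATAA and the ETS core GGAAGT.
Cd163l1 upstream: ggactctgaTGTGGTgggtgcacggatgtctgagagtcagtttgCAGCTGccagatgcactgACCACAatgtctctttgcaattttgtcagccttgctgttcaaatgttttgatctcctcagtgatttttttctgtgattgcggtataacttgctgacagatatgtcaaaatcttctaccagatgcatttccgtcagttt
Cd7 intron 1: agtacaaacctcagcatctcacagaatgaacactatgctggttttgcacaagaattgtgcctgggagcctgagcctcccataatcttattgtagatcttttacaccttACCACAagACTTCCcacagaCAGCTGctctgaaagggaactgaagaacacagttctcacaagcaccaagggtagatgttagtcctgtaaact
Cd7 distal: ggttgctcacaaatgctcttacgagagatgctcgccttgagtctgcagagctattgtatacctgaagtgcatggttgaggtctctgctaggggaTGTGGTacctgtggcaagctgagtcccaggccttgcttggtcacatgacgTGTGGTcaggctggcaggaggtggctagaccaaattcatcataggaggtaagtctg
Cdh1 intron 2: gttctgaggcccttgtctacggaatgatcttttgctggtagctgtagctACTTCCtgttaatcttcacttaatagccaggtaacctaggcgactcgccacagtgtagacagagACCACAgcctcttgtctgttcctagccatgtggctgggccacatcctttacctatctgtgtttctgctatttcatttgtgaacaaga

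All 4 windows held TGTGGT or its complement ACCACA, a sequence found in 43.7% of the 6070 Cbfa2t3 windows on assembled chromosomes. The site upstream of Cd163l1 and the distal one at Cd7 held it at 2 places each. CAGCTG stood in the window upstream of Cd163l1 and in that of Cd7 intron 1, against 47.4% of all Cbfa2t3 windows, and GGAAGT, on the minus strand, in those of Cd7 intron 1 and Cdh1 intron 2, against 32.7%. In Cd7 intron 1 the ETS and Runx matches are separated by 2 bases and the E-box follows 6 bases later, and no matches overlap. CACCTG, present in 41.6% of the windows, and AGATAA, in 6.47%, were not found in these 4. A match is a description of letters and does not show binding by a factor.

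The site upstream of Cd163l1 (peak chr7:140213894-140214272) had a score of 69.1, at or above that of 83.9% of the Cbfa2t3 peaks. It is intergenic and lies in a LINE repeat named L1MDa by the annotations in the list. The others were near the weak end of a list that starts at 20.6 and has a median of 33.2. The 2 peaks at Cd7 scored 23.7 (chr11:121038859-121039237) and 23.0 (chr11:121019493-121019871), and that in Cdh1 (chr8:106643110-106643488) scored 21.2, at or above 4.99% of the list.

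Within 100 kb of a start site, whatever the nearest gene, 9 Cbfa2t3 and 5 Zbtb1 peaks were found. Of the genes in the fit 57.3% had a Cbfa2t3 peak and 69.7% a Zbtb1 peak that near. Cd7 had no Zbtb1 peak within this distance. For Cdh1 the Zbtb1 peaks lay 69.4 kb upstream, in an intron of the neighbouring cadherin gene Cdh3, with a score of 20.3, and 98.2 kb downstream in Tango6, with a score of 15.8. The same intron held a Cbfa2t3 peak 68.7 kb upstream of Cdh1, with a score of 46.6, which was 304 bp from the Zbtb1 peak and did not overlap it. Another Cbfa2t3 peak lay 56.4 kb upstream of Cdh1 in a different Cdh3 intron, with a score of 32.2. Cdh3 itself was listed above 0 in 1 of 15 libraries.

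For Cd163l1 the closest Zbtb1 peak was 80.2 kb upstream. The only place within 100 kb of a member where the 2 lists shared bases was 84.0 kb upstream of Cd163l1 inside Paox, with Mtg1 as the listed nearest gene (chr7:140134014-140134384 for Zbtb1, score 33.6, and chr7:140134049-140134427 for Cbfa2t3, score 45.2). Between it and the site 4.2 kb upstream lay Cbfa2t3 peaks at 25.2 kb and 10.0 kb with scores of 37.4 and 26.6, which the list assigned to the olfactory receptor gene Olfr524. The lists hold 1 score per peak and no replicate values, so that no error can be given for these scores, and the assignment to the nearest gene says nothing of which gene a site acts on.

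**Figure D3:**
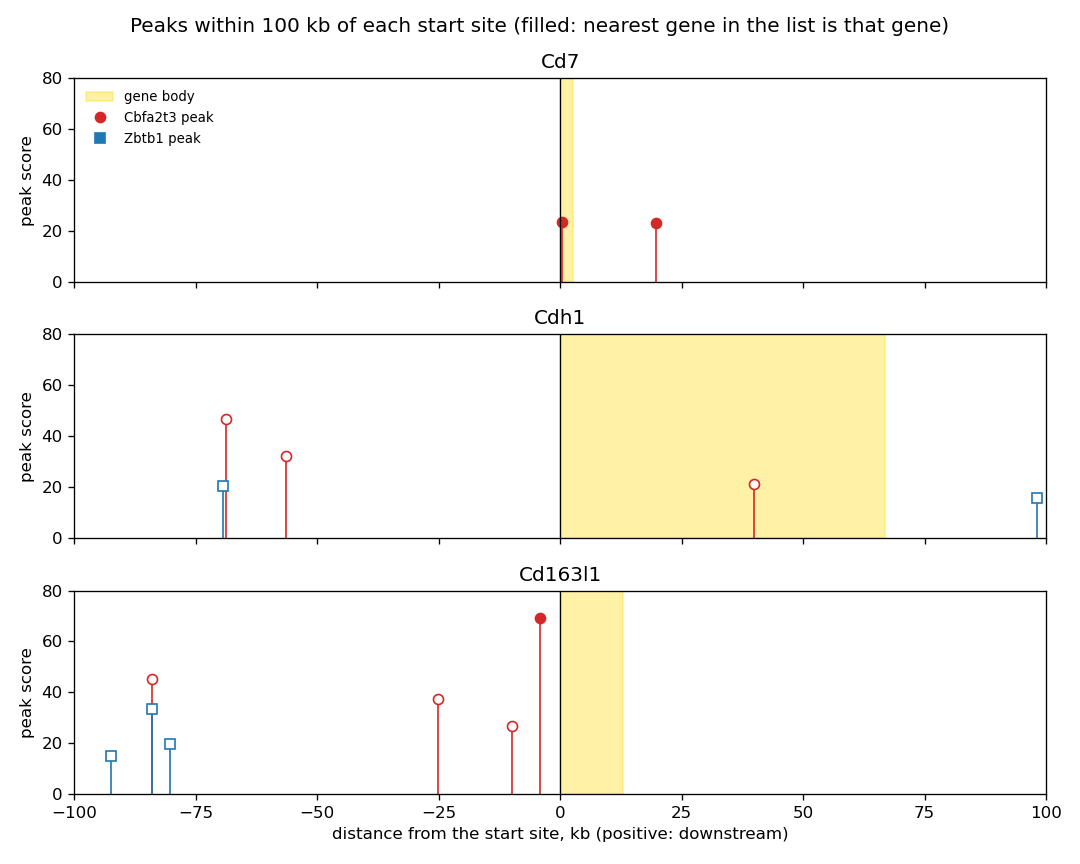
Peaks of the Zbtb1 (blue squares) and Cbfa2t3 (red circles) lists within 100 kb of the start sites of Cd7, Cdh1 and Cd163l1, by distance in kb (positive is downstream in the direction of the gene) and peak score, with the gene body shaded and filled symbols where the listed nearest gene is that gene. The filled symbols are 3 Cbfa2t3 peaks, 2 at Cd7 and 1 at Cd163l1 with the highest score shown, 69.1, and Cd7 has no Zbtb1 peak in the window.

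Of the known partners of these surface proteins some were at or near 0 and others were expressed. Of the Cd7 ligands Sectm1b was at 0 in all 15 libraries and Sectm1a was above 0 in 1, at 0.586 TPM. Of the lymphocyte receptors for E-cadherin Klrg1 was at 0 in all libraries, and Itgae was above 0 in 3 with at most 1.74 TPM, the worth of 3 reads. Itgb7, whose product pairs with that of Itgae, had means of 52.0 TPM in sgControl, 37.9 in sgZbtb1 (log2 difference -0.44, limma adjusted p = 0.132) and 71.3 in sgLmo2 (0.44, limma adjusted p = 0.838). The catenin genes were expressed: Ctnnb1 (beta-catenin) had means of 397 (sgControl) and 392 TPM (sgZbtb1), a log2 difference of -0.02 (limma adjusted p = 0.95), and Ctnna1 (alpha-catenin) was at 87.3 and 76.4 TPM (log2 difference -0.20, limma adjusted p = 0.544).

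Among 15 tested genes of a list on cadherin adhesion (31 without Cdh1), 1 fell in sgZbtb1 and none rose, where 2.94% of all genes in the fit were lower and 1.85% higher. It was Jup, which encodes plakoglobin, a catenin of cell junctions, at 25.6, 20.8 and 23.5 TPM in sgControl and 9.50, 12.9 and 7.37 TPM in sgZbtb1. These ranges did not overlap, and the log2 difference was -1.18 (standard error 0.29, limma adjusted p = 0.00696), although without replicate 3 of sgZbtb1 no gene of the list passed. The median log2 difference of the list was -0.20 against -0.03 for all genes. In the other groups limma called none of these genes, with 3 (sgCbfa2t3), 4 (sgCbfa2t2) and 3 (sgLmo2) at an unadjusted p under 0.05. edgeR called none there either, and DESeq2 called 1 in sgLmo2, Tcf4. The background called lower and higher was 0.407% and 0.13% in sgCbfa2t3, 0.121% and 0.026% in sgCbfa2t2, and 0.00866% in each direction in sgLmo2.

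Of 21 genes with SRCR domains besides Cd163l1, 7 were tested. Only 5830411N06Rik passed, lower in sgZbtb1 and in sgCbfa2t3 as given above, and it no longer passed with DESeq2 in either group. In sgCbfa2t2 and sgLmo2 limma, edgeR and DESeq2 called none of the 7, with 2 and 1 at an unadjusted p under 0.05, although 5830411N06Rik passed in sgLmo2 without replicate 1 of sgControl. The lymphocyte receptor gene Cd5 was near the limit of 3 reads, with means of 1.16 (sgControl) and 1.71 TPM (sgZbtb1).

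A list of 39 genes for other surface proteins of early lymphoid cells had 35 tested, of which 7 fell and 2 rose in sgZbtb1, where 2.94% of all genes were lower and 1.85% higher. Ly6d, a marker of lymphoid progenitors biased to the B lineage, was at 134, 155 and 186 TPM in sgControl and 27.9, 36.8 and 23.6 TPM in sgZbtb1 (log2 difference -2.40, standard error 0.15, limma adjusted p = 3.19e-20). Cd2, an adhesion receptor of T and NK cells, went from 13.8 ± 7.39 to 2.01 ± 0.40 TPM (SD, n = 3 each), a log2 difference of -2.19 (limma adjusted p = 0.000442). Il2rb, a subunit of the IL-2 and IL-15 receptors, went from 50.2 ± 11.7 to 13.9 ± 5.08 TPM (log2 difference -1.81, limma adjusted p = 1.16e-08), and Ccr9, the receptor for the thymic chemokine Ccl25, from 923 ± 74.8 to 359 ± 45.0 TPM (log2 difference -1.36, limma adjusted p = 5.35e-17). Kit, Thy1 and Ptprc also fell, by 1.14, 1.03 and 0.28 on the log2 scale. The alpha 4 integrin gene Itga4 and the progenitor marker Cd34 rose by 0.56 and 0.53, so that a fall was not shared by the whole surface list, whose median was -0.30 beside -0.03 for all genes.

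In sgCbfa2t3 3 of these surface genes fell and 1 rose, beside 0.407% and 0.13% of all genes. The ones that fell were Ly6d, to 57.9 ± 8.52 TPM (log2 difference -1.43, limma adjusted p = 6.82e-10), Ccr9, to 571 ± 72.3 TPM (-0.70, limma adjusted p = 4.57e-06), and Thy1, to 227 ± 22.2 TPM (-0.48, limma adjusted p = 0.014). Itga4 rose by 0.70 (limma adjusted p = 2.32e-06). In sgCbfa2t2, where 0.121% of all genes were lower, 2 fell, Ly6d to 97.1 ± 3.54 TPM (-0.69, limma adjusted p = 0.0186) and Ccr9 to 651 ± 130 TPM (-0.52, limma adjusted p = 0.00502). This count was 0 without replicate 3 of sgControl and 1 without replicate 2 of sgControl or any single library labelled sgCbfa2t2. In sgLmo2 limma, edgeR and DESeq2 called none, with 6 at an unadjusted p under 0.05, and Itga4 passed without replicate 1 of sgLmo2. The means of Ly6d followed the order of the members from sgLmo2 (200 TPM) over sgControl (158), sgCbfa2t2 (97.1) and sgCbfa2t3 (57.9) to sgZbtb1 (29.4 TPM).

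A list of 30 genes of the gamma-delta T cell and innate lymphoid program, the setting in which Cd163l1 is best known, had 15 tested genes. Of these 7 fell in sgZbtb1 and none rose, beside 2.94% and 1.85% of all genes, and without replicate 2 of sgControl 4 fell. Like the other lists, it was chosen with earlier results of these data known, so the counts describe the lists and do not test them. Bcl11b was at 24.4, 20.3 and 18.8 TPM in sgControl and 5.59, 4.30 and 5.89 TPM in sgZbtb1, with no overlap (log2 difference -1.82, standard error 0.36, limma adjusted p = 0.000453). Nfil3, a transcription factor gene needed for innate lymphoid cells, fell by 1.01 (limma adjusted p = 0.0249), the T cell receptor gamma constant gene Tcrg-C4 by 0.76 (limma adjusted p = 9.26e-09) and Id2, which encodes an inhibitor of E proteins, by 0.60 (limma adjusted p = 0.00183). The others were Trdc, Tcrg-C1 and Tcrg-C2, which fell by 0.47, 0.37 and 0.29. The receptor genes Tcrg-C1, Tcrg-C2, Tcrg-C4 and Trdc are related and were counted singly. Their sgControl means were 372 to 876 TPM, while the share of all genes covers every gene with a mean above 1 TPM. The list's median was -0.47, beside -0.03 for all genes.

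Limma called none of these genes in the other groups, with 4 (sgCbfa2t3), 1 (sgCbfa2t2) and 0 (sgLmo2) at an unadjusted p under 0.05. edgeR and DESeq2 also called none in sgCbfa2t2 and sgLmo2 but 1 each in sgCbfa2t3, as did limma without replicate 2 of sgControl or replicate 3 of sgCbfa2t3. That gene was Id2, which was higher there (221 ± 31.6 against 157 ± 24.6 TPM, log2 difference 0.49, limma adjusted p = 0.0599), while it was lower in sgZbtb1 (104 ± 23.8 TPM). The list's median in sgCbfa2t3 was -0.18, beside -0.010 over all genes tested. Its members ranged there from Bcl11b (11.5 TPM against 21.1 in sgControl, log2 difference -0.92, limma adjusted p = 0.334) to Zbtb16 (7.80 against 5.81 TPM, log2 difference 0.55, limma adjusted p = 0.727).

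**Figure D4:**
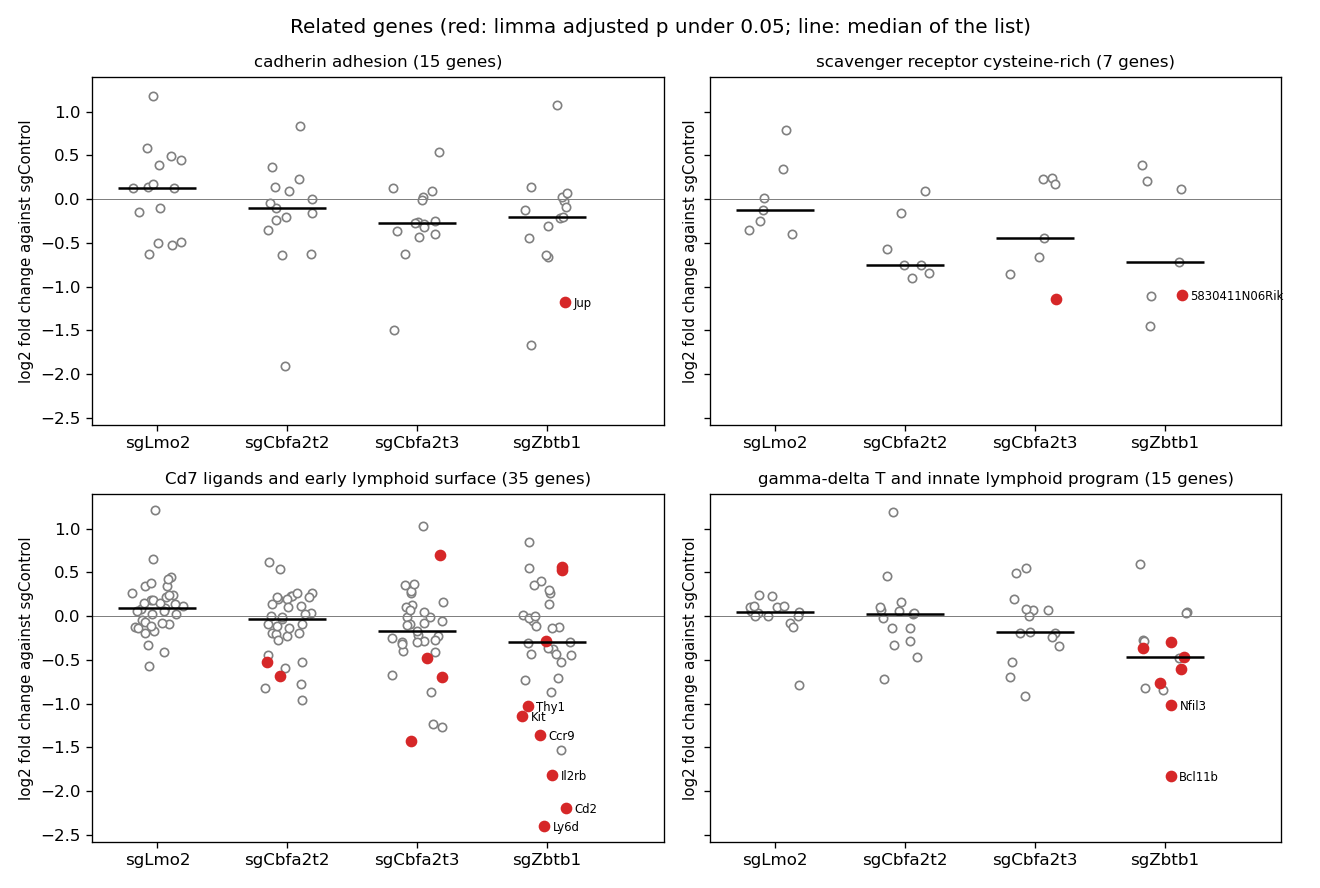
Log2 fold change against sgControl of the tested genes of 4 lists of related genes, without the members, for each sgRNA (one point per gene, red for a limma adjusted p under 0.05, a line at the list median). In sgZbtb1 7 of 35 early lymphoid surface genes and 7 of 15 gamma-delta T and innate lymphoid genes are red below 0, against 1 of 15 cadherin genes, Jup.

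Markers of other cells gave the setting of these values. Of 13 lymphoid progenitor markers 11 had a mean above 1 TPM, and their sum was 1294 to 1567 TPM in sgControl and 1338 to 1407 TPM in sgZbtb1. Of 12 epithelial markers 10 were at 0 in every library, keratins and claudins included, and the sum was 1.16 to 5.28 TPM in sgControl and 0 in sgZbtb1, all of it Epcam. Epcam, an epithelial adhesion gene, had means of 2.73 TPM in sgControl, 1.85 in sgCbfa2t2, 0.754 in sgLmo2 and 0.749 in sgCbfa2t3, beside Cdh1 at 38.2 TPM in sgControl. Of 12 OP9 stroma markers 4 were at 0 everywhere, among them Col3a1 and Dcn, and the sum was 4.63 to 10.6 TPM in sgControl and 1.47 to 6.70 TPM in sgZbtb1, mostly Pdgfrb.

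The sum of 11 mature T cell markers was lower in every library of sgZbtb1, sgCbfa2t2 and sgCbfa2t3 than in sgControl, but reached lower in sgCbfa2t2 than in sgCbfa2t3, unlike the means of the members. It was at 415 to 423 TPM in sgControl, 354 to 369 TPM in sgCbfa2t3, 296 to 362 TPM in sgCbfa2t2, 409 to 467 TPM in sgLmo2 and 267 to 312 TPM in sgZbtb1. Nearly all of it was Trdc, which is also in the gamma-delta list, while Cd8a and Cd8b1 were at 0 in all libraries and Cd3e was above 0 in 1. The sum of 7 B lineage markers was 310 to 375 TPM in sgControl, 259.5 to 330.0 TPM in sgLmo2, 254 to 292 TPM in sgCbfa2t3, 254 to 272 TPM in sgCbfa2t2 and 210 to 223 TPM in sgZbtb1, so that only sgLmo2 overlapped sgControl. It was mostly Ebf1, whose reads near the 3′ end were present in this Ebf1-deficient line. The sum of 10 myeloid markers overlapped between sgControl and sgZbtb1, at 76.1 to 104 and 80.5 to 99.4 TPM. The part of any of these in the levels of Cd7, Cdh1 or Cd163l1 was not tested.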

How the data were processed

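Gene expression of 15 QuantSeq libraries and 2 lists of ChIP-seq peaks were analysed. Per the labels and methods, the authors trimmed the QuantSeq reads with fastp, mapped them to mm10 with STAR and scaled the libraries to equal totals. The deposited TPM behave as CPM: within a library all values were multiples of the value of 1 read, and whole reads were recovered for 100% of values (tolerance 0.05 reads). Each library also had 1 read in a row without a gene identifier (4.77e-05% to 5.86e-05% of reads), which was left out. ChIP-seq reads were mapped by the authors with Bowtie 1.1.1, peaks were called with HOMER, and the authors deposited the reproducible peaks of 2 replicates with a normalized peak score.

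Genes with a mean above 1 TPM (11554) were fitted with limma 3.58.1 (eBayes with a trend) in R 4.3.3 on log2(TPM + 1) in a single model of the 15 libraries, with Benjamini-Hochberg adjustment over these genes. The plan assumed TPM, and the test was kept for these CPM values. Alternatives were adding 0.1 in place of 1, fitting every gene above 0 or those with a mean above 10 TPM, using the libraries of the 2 groups alone, a replicate block, scaling by median-of-ratios size factors, the count tests of edgeR 4.0.16 and DESeq2 1.42.0 on recovered reads, each library left out in turn and, for peaks, a score of at least 30, a distance of 100 kb and an overlap of 50%. On simulated data with 200 changed genes the test steps were checked. Nothing in the sources used here says whether replicates came from separate cultures beyond calling them biologically independent, and p-values measure the spread between these libraries. Libraries of a group differed beyond sampling noise (chi-square divided by its degrees of freedom 2.22 to 3.60). How QuantSeq reads were counted by strand is not given in the sources used here.

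The members and all gene lists were chosen with earlier results of these data known. Genes named are the members, the 5 most like each, up to 4 called genes per list and group, neighbours within 200 kb and the targeted genes. Others named (further called genes, ligands, receptors, catenins, Cd5, Tcf4 and markers) were chosen for their role or after their values were seen. Gene positions are from GENCODE vM21, sequences from RefSeq GRCm38.p6. Python 3.11.15 with pandas 2.3.3 and scipy 1.17.1 was used. The input libraries were not analysed here.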

Additional observations from a re-analysis of the deposited data

How the results depend on the processing

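Over 497 recomputed values 455 were counted as the same. Tested differences among these kept their direction and their side of the threshold, and counts stayed within a tolerance. Differences of members from sgControl carry no test and counted as the same if they moved by less than the residual SD, whatever the sign. The Cd7 difference of sgLmo2 from sgControl, 0.06, was counted as the same at -0.33 without replicate 1 of sgControl. For Cd7 in sgCbfa2t3 against sgLmo2 the call was lost with all genes above 0 (-2.02, limma adjusted p = 0.201) and with DESeq2 (-2.30, adjusted p = 0.1215), and leaving out single libraries gave -2.32 to -1.61. For Cd163l1 in this comparison it was lost with a pseudocount of 0.1 (-1.996, limma adjusted p = 0.215) and with all genes above 0 (-1.81, limma adjusted p = 0.238), and single libraries left out gave -2.30 to -1.51. Leaving out single libraries moved the Cd163l1 difference between sgCbfa2t3 and sgCbfa2t2 over -0.76 to 0.0195, a reversed sign. With a pseudocount of 0.1 the Cd163l1 difference of sgZbtb1 from sgControl was -5.18, as the constant added is then smaller. DESeq2 gave no adjusted p for Cd7 and Cd163l1 in sgCbfa2t2 against sgLmo2. Cdh1 kept its calls in all alternatives.

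The cadherin count of called genes in sgLmo2 was 1 with the replicate block and DESeq2, and in sgZbtb1 0 to 1 with single libraries left out. The SRCR count was 0 with DESeq2 in sgZbtb1, 0 with all genes above 0 and with DESeq2 in sgCbfa2t3, 1 (5830411N06Rik) with the replicate block in sgCbfa2t2 and sgLmo2, and 0 to 1 without single libraries in sgLmo2. The early lymphoid surface count in sgCbfa2t2 was 0 with all genes above 0, 1 with DESeq2 and 0 to 2 without single libraries, and in sgLmo2 1 with the replicate block and 0 to 1 without single libraries. The gamma-delta count was 4 to 7 in sgZbtb1 without single libraries. In sgCbfa2t3 it was 1 with the 2 groups alone, the replicate block, the size factors, edgeR and DESeq2, and 0 to 1 without single libraries. The cause was not tested. Of the Cbfa2t3 peaks with a member as the nearest gene 1 had a score of at least 30, and with centres within 100 kb the counts were 9 for Cbfa2t3 and 5 for Zbtb1.

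The replicate numbers were not taken as pairs, since libraries with the same number correlated in their deviations from the group means by as little as -0.007. However, the mean correlation was 0.028 for the same number and -0.014 for different numbers. In addition, 14 of 15 libraries correlated best with their own number, a hint of shared batches from the data. The replicate block changed the genes called from 554 to 709 in sgZbtb1, from 62 to 93 in sgCbfa2t3, from 17 to 36 in sgCbfa2t2 and from 2 to 14 in sgLmo2, and changed no call of a member. Size factors moved the median of all genes by at most 0.02 on the log2 scale. Depth limits Cd163l1 and Cd7 in sgZbtb1, where 5 and 14 reads lie behind the values.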
